A study of Homo sapiens with 9 samples.

Results

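The genes described here encode 10 proteins of desmosomes and tight junctions, the junctions that hold epithelial sheets together and seal them. They were taken by name, by their Entrez gene ID, and all 10 were found among the 19934 genes tested on the 9 arrays. They are the desmosomal cadherins DSG2, DSC2 and DSC3, the desmosomal plaque genes DSP, JUP and PKP2, the tight junction scaffold gene TJP1, the claudins CLDN1 and CLDN11, and OCLN. RNA came from WM793TR, an invasive mutant BRAF melanoma line from the vertical growth phase, with 3 arrays in each of 3 groups. The shTWIST1 + TWIST1 cells carried the TWIST1 shRNA with a TWIST1 cDNA driven by a CMV promoter, the shTWIST1 cells the TWIST1 shRNA alone, and the shControl cells a control shRNA. The labels call the first group TWIST1 overexpression, the second TWIST1 knockdown and the third TWIST1 basal, and the third was read as the control shRNA because that is the remaining line in the growth protocol. Cells of all groups had been kept in 100 ng/mL doxycycline for 96 h, to induce the shRNA or transgene. Whether a group was 1 clone is not given in the sources used here. The methods of the study state, for experiments in general, that each was run independently 3 times, but neither they nor the labels say so of these arrays in particular, so p-values measure the spread between these arrays, part of which may be technical.

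In a desmosome, the extracellular parts of desmogleins and desmocollins bind those of the neighbouring cell, plakoglobin (JUP) and plakophilins (PKP2 among them) bind their tails, and desmoplakin (DSP) ties the plaque to intermediate filaments. In a tight junction, claudins form the paracellular barrier, occludin (OCLN) is a membrane protein of the same strands, and ZO-1 (TJP1) links both to actin. Desmosomes join keratinocytes in skin and myocytes in the heart, where DSG2 and PKP2 are the main forms. TWIST1 is a basic helix-loop-helix factor that binds E-boxes, and in epithelial cells it is known for driving the epithelial to mesenchymal transition, in which such junctions are taken apart.

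The 250 bases before the RefSeq start site are shown for the 3 members whose shTWIST1 + TWIST1 arrays all lay above the other 6, DSG2, DSP and OCLN, and for DSC2 and DSC3, the other desmosomal cadherins of the list, which lie in the same gene cluster as DSG2. Bases run 5′ to 3′ on the strand of the gene, from GRCh38.p14 as given by RefSeq, and capitals mark each E-box, the word CANNTG, which reads the same on both strands.
DSG2, chr18:31497927-31498176, plus strand: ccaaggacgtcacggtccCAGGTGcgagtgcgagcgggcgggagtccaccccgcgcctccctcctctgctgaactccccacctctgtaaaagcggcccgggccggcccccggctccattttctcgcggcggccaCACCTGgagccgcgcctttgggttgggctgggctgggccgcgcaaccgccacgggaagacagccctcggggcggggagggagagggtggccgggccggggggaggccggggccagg
DSP, chr6:7541421-7541670, plus strand: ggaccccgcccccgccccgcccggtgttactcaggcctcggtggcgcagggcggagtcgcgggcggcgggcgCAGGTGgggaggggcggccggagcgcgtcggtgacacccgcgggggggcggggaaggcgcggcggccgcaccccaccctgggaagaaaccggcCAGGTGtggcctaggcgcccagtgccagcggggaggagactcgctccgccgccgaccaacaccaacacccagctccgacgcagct
OCLN, chr5:69492297-69492546, plus strand, the first of its 2 start sites: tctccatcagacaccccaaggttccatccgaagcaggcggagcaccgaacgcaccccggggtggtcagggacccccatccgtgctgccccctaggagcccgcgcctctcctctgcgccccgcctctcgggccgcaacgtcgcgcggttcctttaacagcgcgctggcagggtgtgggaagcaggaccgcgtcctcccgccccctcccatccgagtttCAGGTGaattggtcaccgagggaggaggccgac
DSC2, chr18:31102422-31102671, minus strand, the outer of its 2 start sites: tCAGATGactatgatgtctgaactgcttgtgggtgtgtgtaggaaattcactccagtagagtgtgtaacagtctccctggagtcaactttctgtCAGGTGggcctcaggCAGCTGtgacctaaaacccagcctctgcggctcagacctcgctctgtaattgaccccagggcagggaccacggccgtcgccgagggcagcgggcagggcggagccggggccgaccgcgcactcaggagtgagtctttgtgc
DSC3, chr18:31042743-31042992, minus strand: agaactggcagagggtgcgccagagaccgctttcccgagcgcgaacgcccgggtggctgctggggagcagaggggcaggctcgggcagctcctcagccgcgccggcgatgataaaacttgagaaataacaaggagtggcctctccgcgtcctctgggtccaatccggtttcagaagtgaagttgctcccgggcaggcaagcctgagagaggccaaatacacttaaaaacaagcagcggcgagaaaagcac
The DSG2 window held 2 E-boxes, CAGGTG and CACCTG, whose first bases lay 232 and 116 bases before the start site. The DSP window held CAGGTG at 178 and at 85 bases. The OCLN window shown held it at 33 bases, and the window of its second start site, not shown, held it at 133 bases. The outer DSC2 window held CAGATG at 249 bases, CAGGTG at 156 and CAGCTG at 141, while its inner window and that of DSC3 held none. An E-box was found in 61.8% of 35116 RefSeq windows of this length, and the words CAGGTG or CACCTG, which are 1 word read on the 2 strands, in 17.5%. These are matches of letters, and no binding was measured at them here. Of the other members, CLDN1 had no E-box in its window, while 1 of 2 windows of CLDN11, 1 of 2 of JUP and 1 of 4 of TJP1 held at least 1. The word CAGGTG or CACCTG was also found in windows of members other than DSG2, DSP and OCLN. There it was CACCTG at 54 and CAGGTG at 43 bases in JUP, CAGGTG at 88 bases in TJP1 and the DSC2 match above. PKP2 had no entry in the table of windows.

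The values are log2 expression after RMA, so a difference of 1 is a 2-fold change. Correlations between arrays lay between 0.975 and 0.994 and array medians between 4.73 and 4.79, and arrays have no read depth. TWIST1 averaged 8.64 ± 0.33 in shTWIST1 + TWIST1, 6.23 ± 0.05 in shTWIST1 and 7.01 ± 0.20 in shControl cells (SD, n = 3 each). It rose in shTWIST1 + TWIST1 cells, 3.1-fold against shControl (adjusted p = 0.00199 by limma) and 5.32-fold against shTWIST1 (adjusted p = 0.000291 by limma). TWIST1 RNA in these cells thus lay above the control level, and the word rescue below names only the construct. In shTWIST1 against shControl the TWIST1 log2 fold change of -0.78 did not pass (adjusted p = 0.293 by limma), although the arrays did not overlap. The melanocyte lineage factor gene SOX10 and 3 other markers were above the 30th percentile of all genes (a log2 value of 3.22) among the 8 melanocyte markers analysed here, whereas the pigmentation genes PMEL, MLANA, TYR and TYRP1 lay under it. The tests between groups used limma in 1 fit of all 9 arrays, with Benjamini-Hochberg adjustment over the 19934 genes and a threshold of 0.05.

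DSG2, a desmoglein found in most cells that have desmosomes, was the member with the largest change in both comparisons of shTWIST1 + TWIST1 cells. It was at 6.56, 6.90 and 7.09 in shTWIST1 + TWIST1 cells, at 4.88, 4.80 and 5.30 in shTWIST1 cells and at 5.18, 5.28 and 5.52 in shControl cells, as log2 expression on replicates 1, 2 and 3. All 3 arrays with the rescue construct lay above the other 6, while the ranges of shTWIST1 and shControl overlapped. Against shControl, DSG2 rose by a log2 fold change of 1.53 (SE 0.18, adjusted p = 0.00412 by limma), that is 2.88-fold with a 95% interval of 2.17 to 3.82. Against shTWIST1 it rose by 1.86 (SE 0.18, adjusted p = 0.00128 by limma), or 3.62-fold with a 95% interval of 2.73 to 4.80. By log2 fold change DSG2 ranked 51 from the highest of the 19934 genes against shControl, and 40 against shTWIST1. Between shTWIST1 and shControl, DSG2 had a log2 fold change of -0.33 (SE 0.18, adjusted p = 0.800 by limma), with differences of -0.29, -0.48 and -0.22 between arrays of the same replicate number. The 95% interval of that difference ran from -0.74 to 0.08. With the replicate number as a block, since arrays of these groups with the same number deviated together, the adjusted p was 0.408 by limma.

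DSC2 and DSC3, the desmocollins of the list, stayed close to one level on all arrays. DSC2 had 2.61, 2.95 and 2.82 in shTWIST1 + TWIST1 cells, 2.73, 2.65 and 2.81 in shTWIST1 cells and 2.49, 2.73 and 2.73 in shControl cells. Its groups overlapped in all 3 comparisons, and its log2 fold change was 0.14 against shControl with a 95% interval of -0.11 to 0.39 (adjusted p = 0.635 by limma). DSC3 had 2.16, 2.16 and 2.21 in shTWIST1 + TWIST1 cells, 2.16, 2.21 and 1.96 in shTWIST1 cells and 2.12, 2.16 and 2.16 in shControl cells. Its log2 fold change against shControl was 0.03 with a 95% interval of -0.15 to 0.21 (adjusted p = 0.908 by limma). The desmosomal cadherin genes lie side by side on chromosome 18, and in GRCh38 the cluster runs from DSC3 (30989365 to 31042742) and DSC2 (31058840 to 31102421) through DSC1, DSG1, DSG4 and DSG3 to DSG2 (31498177 to 31549008). The 4 genes between DSC2 and DSG2, which serve desmosomes of stratified epithelium and hair, had values from 2.08 to 2.45 on the 9 arrays. None of them passed the test, with log2 fold changes from -0.02 to 0.19 against shControl (limma, adjusted p from 0.271 to 0.980) and from -0.04 to 0.11 against shTWIST1 (limma, adjusted p from 0.477 to 0.978).

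DSP, which lies on chromosome 6 (7541671 to 7586714 in GRCh38), was also higher on the arrays with the rescue construct, but with a wide spread. It was at 6.0, 7.20 and 6.69 in shTWIST1 + TWIST1 cells, at 5.0, 5.98 and 5.79 in shTWIST1 cells and at 5.49, 5.66 and 5.56 in shControl cells. The lowest rescue array lay above the highest array of each other group, but only just above shTWIST1 replicate 2. The log2 fold change was 1.06 against shControl (SE 0.32, adjusted p = 0.164 by limma) and 1.04 against shTWIST1 (SE 0.32, adjusted p = 0.142 by limma), neither of which passed the threshold. The 95% intervals were 0.32 to 1.80 and 0.30 to 1.78. In all 3 groups replicate 1 was lowest and replicate 2 highest, within a narrower range in shControl cells. DSP differed by 1.0, 1.22 and 0.90 between shTWIST1 + TWIST1 and shTWIST1 arrays of the same number. Against shControl arrays of the same number it differed by 0.52, 1.54 and 1.12. Arrays of shTWIST1 + TWIST1 and shTWIST1 with the same number deviated together, which the reported fit does not use. With the replicate number as a block, DSP passed against shTWIST1 (adjusted p = 0.0285 by limma) and against shControl (adjusted p = 0.0321 by limma). Between shTWIST1 and shControl the log2 fold change of DSP was 0.02 with a 95% interval of -0.72 to 0.76 (adjusted p = 0.994 by limma).

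**Figure D1:**
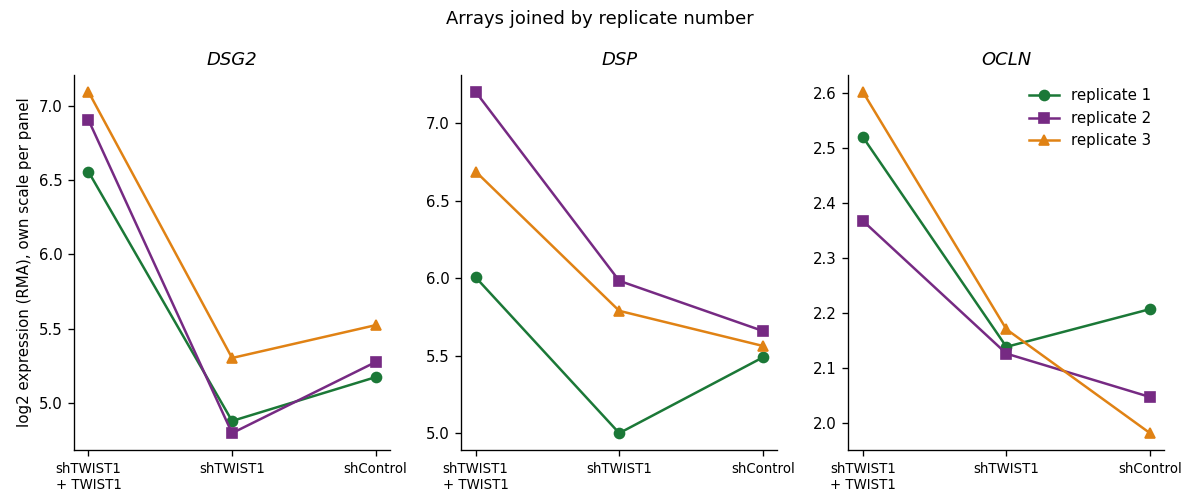
Log2 expression of DSG2, DSP and OCLN (vertical axis, own scale in each panel) in the 3 groups, with lines joining arrays of the same replicate number. In each of the 3 pairs, the shTWIST1 + TWIST1 array stands above the shTWIST1 array, by 1.68 to 2.11 for DSG2 and by 0.90 to 1.22 for DSP.

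JUP and PKP2, whose products sit beside desmoplakin in the plaque, did not pass in any comparison. JUP lies on chromosome 17 (41754609 to 41786711) and PKP2 on chromosome 12 (32790755 to 32896777). JUP had 3.61, 3.74 and 3.40 in shTWIST1 + TWIST1 cells, 3.61, 3.50 and 3.61 in shTWIST1 cells and 3.58, 3.61 and 3.61 in shControl cells. PKP2 had 2.73, 3.09 and 2.94 in shTWIST1 + TWIST1 cells, 3.0, 2.94 and 2.94 in shTWIST1 cells and 2.92, 2.91 and 2.94 in shControl cells. For both genes the rescue arrays lay on either side of the others. Against shControl the 95% interval of the log2 fold change was -0.23 to 0.19 for JUP and -0.21 to 0.21 for PKP2.

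**Figure D2:**
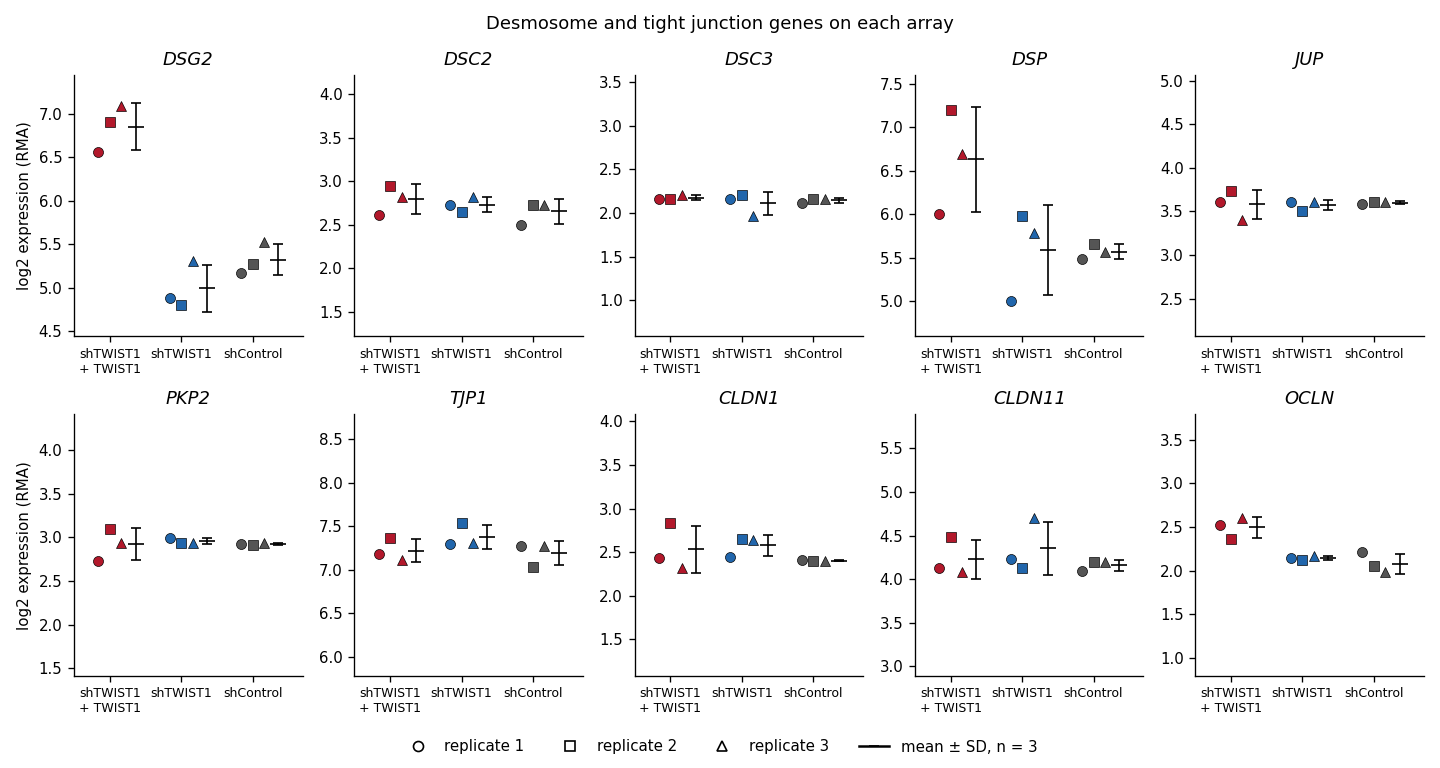
Log2 expression (vertical axis, each panel with its own range of at least 3 units) of the 10 genes on each of the 9 arrays, with the mean and SD of each group beside its 3 points. DSG2 and DSP stand higher on the 3 shTWIST1 + TWIST1 arrays than on the other 6, OCLN does so by a smaller step, and the other 7 genes overlap between shTWIST1 + TWIST1 and both other groups.

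Of the tight junction members, only OCLN passed a test, by a small step at a low level. OCLN lies on chromosome 5 (69492547 to 69558104). It was at 2.52, 2.37 and 2.60 in shTWIST1 + TWIST1 cells, at 2.14, 2.13 and 2.17 in shTWIST1 cells and at 2.21, 2.05 and 1.98 in shControl cells. The rescue arrays did not overlap with either other group. All 9 values lay under the 30th percentile of all genes, so the size of the step in RNA is uncertain and no fold is given. Against shControl the log2 difference was 0.42 (SE 0.09, adjusted p = 0.0470 by limma), and against shTWIST1 it was 0.35 (SE 0.09, adjusted p = 0.0723 by limma). The call against shControl was lost without each array but shTWIST1 + TWIST1 replicate 2, with log2 fold changes from 0.37 to 0.48 and adjusted p from 0.0611 to 0.158 (limma), and after median centring of the arrays (adjusted p = 0.0713 by limma). OCLN has a transcribed pseudogene copy, OCLNP1, elsewhere on chromosome 5, and whether the probes separate the 2 is not given in the sources used here.

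TJP1, on chromosome 15 (29699367 to 29969049), lay well above the 30th percentile on every array. It had 7.18, 7.36 and 7.12 in shTWIST1 + TWIST1 cells, 7.29, 7.54 and 7.30 in shTWIST1 cells and 7.27, 7.03 and 7.28 in shControl cells. The shTWIST1 arrays lay just above the shControl arrays, with a log2 fold change of 0.18 (95% interval -0.07 to 0.43, adjusted p = 0.823 by limma), and the rescue arrays overlapped with both. TJP1 differed by 0.03 between shTWIST1 + TWIST1 and shControl cells, with a 95% interval of -0.22 to 0.28.

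The claudin genes, both on chromosome 3 (CLDN1 at 190305707 to 190322446 and CLDN11 at 170418868 to 170434691), overlapped between shTWIST1 + TWIST1 and both other groups. CLDN1, a claudin of the epidermal barrier, had 2.43, 2.84 and 2.32 in shTWIST1 + TWIST1 cells, 2.44, 2.65 and 2.64 in shTWIST1 cells and 2.41, 2.40 and 2.40 in shControl cells. CLDN11, known from myelin and from Sertoli cells of the testis, had 4.12, 4.48 and 4.08 in shTWIST1 + TWIST1 cells, 4.24, 4.13 and 4.70 in shTWIST1 cells and 4.09, 4.19 and 4.19 in shControl cells. Single arrays set the spread, replicate 2 of shTWIST1 + TWIST1 for CLDN1 and replicate 3 of shTWIST1 for CLDN11. Against shControl the log2 fold change was 0.13 for CLDN1 (95% interval -0.17 to 0.43, adjusted p = 0.735 by limma) and 0.07 for CLDN11 (95% interval -0.30 to 0.44, adjusted p = 0.902 by limma).

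In all, 2 of the 10 members, DSG2 and the dim OCLN, passed as higher in shTWIST1 + TWIST1 against shControl and none fell, where 2.62% of all genes were called, 1.08% higher and 1.55% lower. The call of DSG2 held under 17 of 18 alternative settings and that of OCLN under 4 of 17. At an unadjusted p under 0.05 by limma there were 3 members, DSG2, DSP and OCLN, beside 14.2% of all genes. Against shTWIST1, 1 of 10 rose and none fell, where 3.42% of all genes were called, 1.65% higher and 1.77% lower, and the same 3 members had an unadjusted p under 0.05, beside 17.3% of all genes. Between shTWIST1 and shControl, 0 of 10 were called by limma, none at an unadjusted p under 0.05 and none by the methods' t-test, which allows unequal variance. With the replicate block 0 were called and 1 had an unadjusted p under 0.05, DSG2, which was lower in shTWIST1. There, 0.0652% of all genes were called, 0.00502% higher and 0.0602% lower, and 6.62% had an unadjusted p under 0.05.

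Read by overlap of the arrays alone, DSG2, DSP and OCLN stood above both other groups and no member stood below either. Against shControl, 10.4% of all genes were higher without overlap and 8.15% lower, and against shTWIST1 9.77% were higher and 8.86% lower. In shTWIST1 against shControl, TJP1 and CLDN1 were higher without overlap and no member was lower, where 5.66% of all genes were higher and 6.18% lower. The median log2 fold change of the 10 was 0.10 against shControl, 0.03 against shTWIST1 and 0.05 in shTWIST1 against shControl, beside 0.02, 0.01 and 0.02 over all genes. The comparisons share arrays, so their values are not independent of each other.

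**Figure D3:**
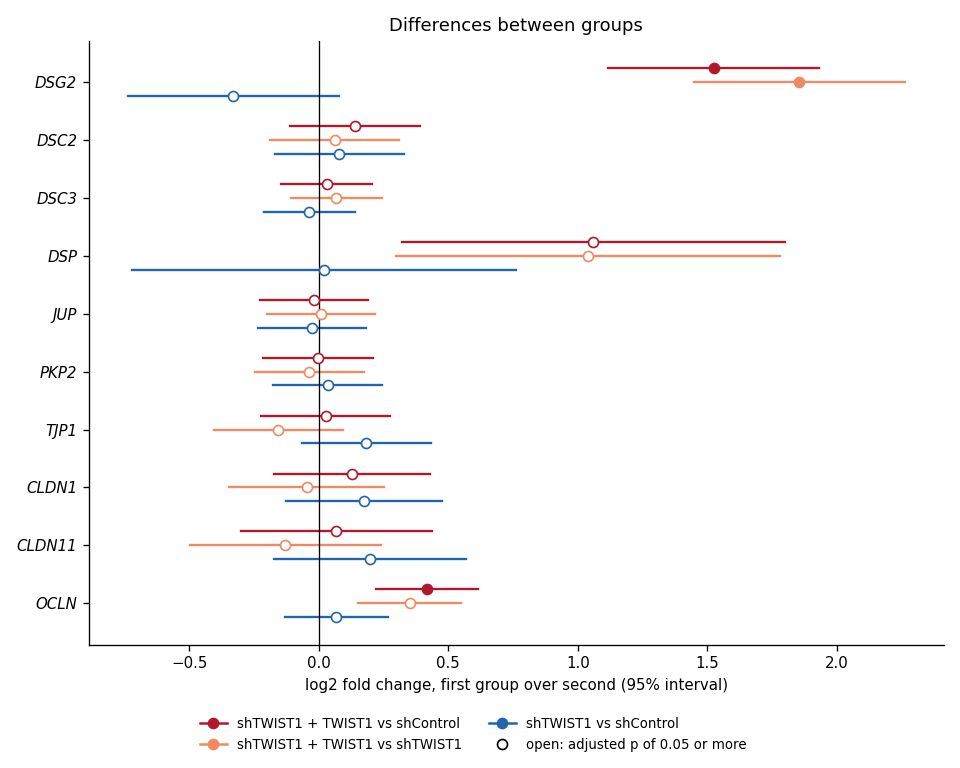
Log2 fold change of each of the 10 genes (horizontal axis, first-named group over the second) with its 95% interval from limma, in the 3 comparisons. Filled points have an adjusted p under 0.05, which DSG2 reached in both comparisons of shTWIST1 + TWIST1 cells and OCLN against shControl only, while the intervals of DSP against both groups lie above 0.

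Low signal limits part of these values. DSC2, DSC3, PKP2, CLDN1 and OCLN had a mean under the 30th percentile of all genes, where a log2 value may be close to background, and no detection call was used here. Repeated values also occurred, as in 50.6% of all genes. Median polish can give several arrays 1 value, but the cause of the repeats was not tested. DSC3 had the same value on 5 of 9 arrays and JUP on 4 of 9, so that their SD can understate the error. DSG2, DSP and TJP1 had 9 distinct values each and lay above the 30th percentile.

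Of 59 other junction genes analysed here, out of 64 listed, JAM2 was the only one that passed, 1 of 59 in each comparison of shTWIST1 + TWIST1 cells beside 2.62% of all genes against shControl and 3.42% against shTWIST1. At an unadjusted p under 0.05 by limma there were 11 of the 59 against shControl and 12 against shTWIST1, where 14.2% and 17.3% of all genes were. Without overlap, 6 were higher and 7 lower against shControl, where 10.4% of all genes were higher and 8.15% lower. Against shTWIST1, 6 were higher and 10 lower without overlap, where 9.77% of all genes were higher and 8.86% lower. JAM2, an immunoglobulin-type junction protein of endothelium and other cells, had 5.12, 5.95 and 5.31 in shTWIST1 + TWIST1 cells, 4.58, 4.24 and 4.45 in shTWIST1 cells and 4.54, 4.49 and 4.40 in shControl cells. Its rescue arrays lay above all others, and it rose by 0.98 against shControl (SE 0.20, adjusted p = 0.0403 by limma) and by 1.04 against shTWIST1 (SE 0.20, adjusted p = 0.0280 by limma). The call against shControl held without shTWIST1 + TWIST1 replicate 1 or 2 and was lost without any 1 of the other 7 arrays (limma, adjusted p from 0.0509 to 0.136), and that against shTWIST1 was lost without 6 of the 9 (limma, adjusted p from 0.0527 to 0.0850), namely shTWIST1 + TWIST1 replicate 3, each of the 3 shTWIST1 arrays and shControl replicates 2 and 3. None of the other 5 plaque genes, which include the plakophilins PKP1, PKP3 and PKP4, passed, with log2 fold changes from -0.17 to 0.06 against shControl. The 19 other claudins did not pass either, with log2 fold changes from -0.38 to 0.63 (lowest adjusted p = 0.0675, limma), nor did the 7 other tight junction scaffold genes, from -0.15 to 0.56, or the 9 polarity complex genes, from -0.41 to 0.29. Against shTWIST1 the lowest log2 fold change of the 59 was -0.90, that of MARVELD2, a MARVEL protein of tricellular contacts (adjusted p = 0.0660 by limma), named here after its value was seen. In shTWIST1 against shControl, 0 of the 59 were called by limma, beside 0.0652% of all genes. There, 3 had an unadjusted p under 0.05 by limma, beside 6.62% of all genes, and 0 passed the methods' t-test after adjustment. The median log2 fold change of the 59 was -0.02 against shControl and -0.07 against shTWIST1.

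**Figure D4:**
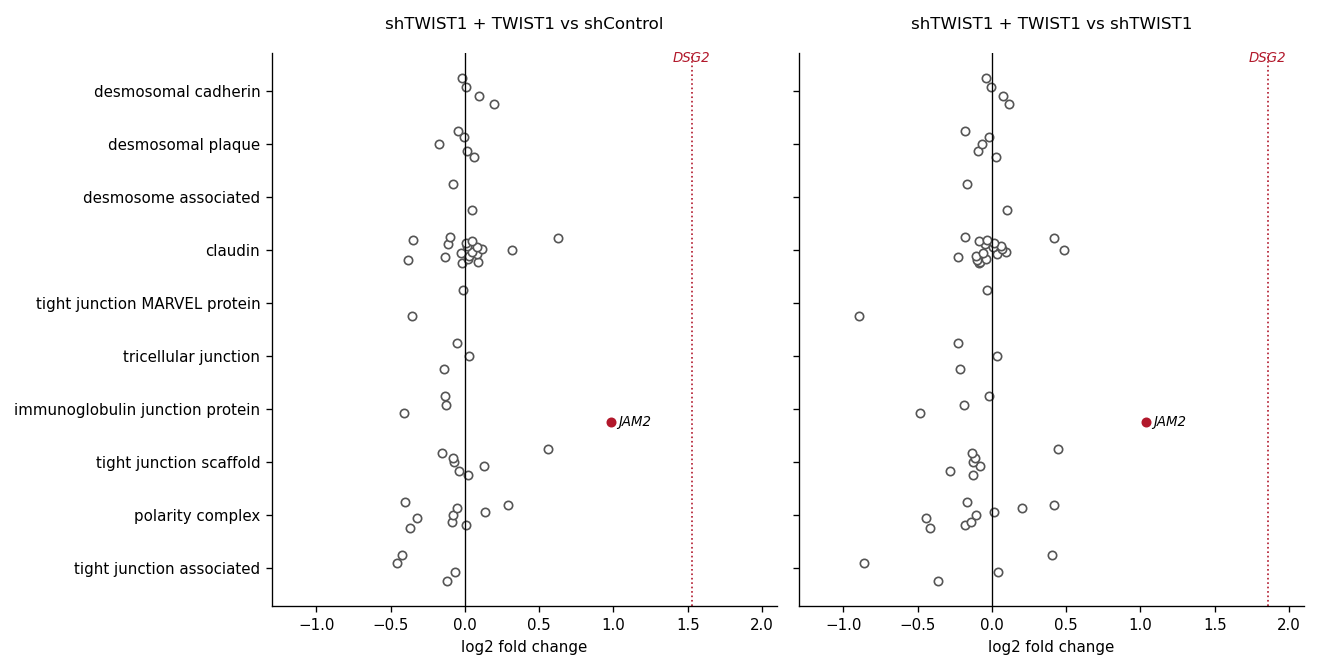
Log2 fold change (horizontal axis) of the 59 other junction genes, 1 point each, grouped by role, in shTWIST1 + TWIST1 against shControl (left) and against shTWIST1 (right). JAM2, the filled point, is the single gene with an adjusted p under 0.05, and the dotted line marks DSG2 at 1.53 and 1.86 for scale.

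Markers of keratinocytes, simple epithelium, endothelial cells, fibroblasts and the melanocyte lineage were read beside the members. Of 9 keratinocyte markers none passed. Their summed log2 value was 28.6 to 29.4 in shTWIST1 + TWIST1, 29.0 to 29.3 in shTWIST1 and 28.8 to 29.1 in shControl cells. KRT5, KRT1, KRT15, DSG1, DSG3 and PKP1 lay under the 30th percentile, and the other 3 above it. Of 10 markers of simple epithelium none passed. They summed to 29.2 to 30.3, 29.1 to 31.0 and 29.8 to 31.4 in the same order of groups. EPCAM and CDH1 were among the 7 under the 30th percentile, and the other 3 lay above it. None of 8 endothelial markers passed, with 22.9 to 24.9, 23.9 to 24.8 and 23.7 to 23.9, and 2 of the 8 lay above the 30th percentile. Of 7 fibroblast markers 1 passed, PDGFRA, which was higher in both comparisons of shTWIST1 + TWIST1 cells, and the other 6 did not. Log2 fold changes of the 7 ran from -0.76 to 1.71 against shControl, 6 of them above 0, and from -0.69 to 1.93 against shTWIST1, 4 of them above 0. Their summed log2 value was 38.4 to 43.5 in shTWIST1 + TWIST1, 33.7 to 35.3 in shTWIST1 and 35.1 to 36.8 in shControl cells. All 7 fibroblast markers lay above the 30th percentile. Of the 8 melanocyte markers, S100B and S100A1 fell in shTWIST1 + TWIST1 against shControl, and 1 was called lower against shTWIST1. In shTWIST1 against shControl 0 of the 8 were called, with log2 fold changes from -2.30 to 0.08. The list summed to 37.7 to 38.8, 39.3 to 40.6 and 42.9 to 43.5 in the same order of groups. The part of these shifts in the values of DSG2, DSP and OCLN was not tested. In bulk RNA, a change in the share of cells with a gene and a change in its RNA per cell cannot be told apart.

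The genes whose values went most closely with the called members over the 9 arrays were found by Pearson r, as a description over arrays that share their groups. For DSG2 they were ANPEP, the membrane aminopeptidase CD13 (r = 0.985), POF1B (r = 0.980) and SH3GL3 (r = 0.975). POF1B was at 2.09 to 2.41 on the 9 arrays, a low signal that may be close to background. In shTWIST1 + TWIST1 cells POF1B did not pass against shControl (adjusted p = 0.259 by limma) or shTWIST1 (adjusted p = 0.105 by limma). SH3GL3 was at 3.01 to 3.19 in shTWIST1 and shControl cells, also under the low-signal limit of 3.22. It passed against shTWIST1 (adjusted p = 0.0312 by limma) but not against shControl (adjusted p = 0.0514 by limma). ANPEP had 7.99, 8.07 and 8.59 in shTWIST1 + TWIST1 cells, 6.25, 6.16 and 6.70 in shTWIST1 cells and 6.17, 6.38 and 6.70 in shControl cells, with replicate 3 highest in each group, as for DSG2. For OCLN they were MYCBP2, a ubiquitin ligase gene (r = 0.987), NEK4, a kinase gene (r = 0.985), and GAL, which encodes the neuropeptide galanin (r = 0.980). For each of these genes the 3 rescue arrays lay above the other 6. The part of each r that comes from this step was not computed.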

How the data were processed

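Total RNA of the 9 WM793TR samples was amplified with the NuGen Ovation system, labelled with biotin and hybridized to single-colour arrays. The authors deposited log2 expression made with RMA (version not given in the sources used here), which corrects background, applies quantile normalization and summarizes probes by median polish. Array type and scanner files were not used here. Of 20673 probe sets, 738 paired with no symbol and were left out. Where 2 shared a gene, the brighter was kept, which left 19934 genes, and 19913 gene IDs matched RefSeq.

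The 3 groups were fitted together with limma 3.58.1 in R 4.3.3 with no block, with Benjamini-Hochberg adjustment across the whole table. The methods of the study name, for experiments in general, a 2-tailed t-test with unequal variance, which was run as an alternative. For these arrays the study reported the Pearson correlation of genes with TWIST1 and gene set enrichment, which were not run here. The members and lists were chosen with earlier results of these data known. Named were the 10 members, TWIST1, called genes among the other junction genes (up to 5 per direction and comparison), the cluster neighbours of DSG2, and the 3 genes most like each called member. Replicate numbers come from the labels. Deviations from the group means correlated at 0.142, 0.296 and 0.304 between shTWIST1 + TWIST1 and shTWIST1 arrays of the same number, at 0.322, 0.508 and 0.288 between shTWIST1 and shControl, and at 0.032, 0.216 and 0.107 between shTWIST1 + TWIST1 and shControl. The replicate number was fitted as a block only as an alternative, so the reported tests do not use any such pairing. Alternatives were the scaling, a dim-gene filter, the prior, array weights, every probe set, the block, the 6 arrays compared, the t-test and leaving out each array. Tables and plots used Python 3.11.15, pandas 2.3.3, numpy 2.4.6 and matplotlib 3.10.9.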

Additional observations from a re-analysis of the deposited data

How the results depend on the processing

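DSG2 kept its direction and its call in both comparisons of shTWIST1 + TWIST1 cells under 17 of 18 alternatives each, with log2 fold changes of 1.4 to 1.67 against shControl and 1.74 to 2.01 against shTWIST1 without each array in turn, and lost the call only with the methods' t-test (adjusted p = 0.346 and 0.259). The methods' t-test called 0 members in each comparison after adjustment, 0 other junction genes against either group, and 3, 2 and 0 genes of the whole table in shTWIST1 + TWIST1 against shControl, against shTWIST1, and in shTWIST1 against shControl. At the unadjusted threshold of the methods it called 2, 2 and 0 members, beside 1588, 1669 and 804 of all 19934 genes. Of the members against shControl, 2 in the reported fit, 1 was called after quantile normalization was applied again, with arrays centred on their medians, without dim genes and with only the 6 arrays compared, since OCLN was lost or, without dim genes, not tested. Against shTWIST1, where 1 was called, 2 were with a trended and robust prior (OCLN added) and 2 with the replicate block (DSP added). Leaving out each array gave 1 to 2 members against shControl and 1 to 2 against shTWIST1, 0 to 2 other junction genes against each, and 264 to 523, 295 to 887 and 8 to 14 genes of the whole table in the 3 comparisons. Other junction genes called against shControl numbered 2 with a trended and robust prior, 2 with array weights, 0 with the replicate block and 0 with only the 6 arrays. Against shTWIST1 they numbered 2 without dim genes, 2 with the block and 0 with only the 6 arrays, and with array weights 1 was called in shTWIST1 against shControl. Over the whole table, 523 genes were called against shControl and 682 against shTWIST1, 801 and 1076 with the replicate block, and 260 and 353 with only the 6 arrays, while array weights gave 25 in shTWIST1 against shControl in place of 13. The block also brought DSP past the threshold against shControl (adjusted p = 0.0321 by limma). There it took away the calls of OCLN and JAM2 (adjusted p = 0.0545 and 0.0515 by limma). The block changed no other call of a member or of JAM2. Signs turned only for values near 0. Quantile normalization gave DSC3 against shControl -0.0165 and PKP2 in shTWIST1 against shControl -0.0113. Array weights gave DSP in shTWIST1 against shControl -0.138, JUP against shTWIST1 -0.0359 (-0.0012 after median centring), TJP1 against shControl -0.0088 and JAM2 in shTWIST1 against shControl 0.0076. Without each array in turn, log2 fold changes against shControl ran from -0.0948 to 0.0718 for JUP, -0.0888 to 0.0916 for PKP2, -0.0546 to 0.0786 for TJP1, -0.0275 to 0.2315 for CLDN1 and -0.0584 to 0.1425 for CLDN11. Against shTWIST1 they ran from -0.0171 to 0.154 for DSC2, -0.0064 to 0.1138 for DSC3, -0.069 to 0.0976 for JUP, -0.1231 to 0.0572 for PKP2, -0.2014 to 0.0577 for CLDN1 and -0.256 to 0.0435 for CLDN11. In shTWIST1 against shControl they ran from -0.0007 to 0.1205 for DSC2, -0.0834 to 0.0368 for DSC3, -0.1756 to 0.3155 for DSP, -0.0443 to 0.0102 for JUP and -0.1311 to 0.037 for JAM2. The causes were not tested. With 3 arrays a group, and with 5 members under the 30th percentile of signal, small changes of the other members cannot be resolved.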
